A study of Ovis aries with 20 samples.

Results

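The comparison asked how gene expression in the CFTR-/- sheep pancreas differed between 65 and 80 days of gestation. CFTR is the chloride and bicarbonate channel of the duct surface that is lost in cystic fibrosis (CF). The comparison rested on 4 of the 20 bulk RNA-seq libraries of the series, those labelled CF at day 65 (2 animals) and at day 80 (2 animals), and covered every gene in the CF count table. The remaining 6 CFTR-/- libraries, of 100 and 120 days and term, entered only to estimate the spread between animals, and the 10 WT libraries were used for a side-by-side view. All CFTR-/- fetuses were clones, made by putting donor nuclei into enucleated eggs. The donor cells were fetal fibroblasts of 1 male line of the American Romney breed, with CFTR targeted in exon 2, so the animals of both ages shared that genome and differed in age, whereas the WT fetuses were bred. The sample labels of the 2 animals of 65 days share a stem, and so do those of 80 days. Whether a stem marks 1 recipient ewe is not stated, and if it does, age and ewe cannot be told apart. One sample label is given both to animal 1 of the 65-day WT group and to the 100-day CFTR-/- animal 2, and to which it belongs is not stated. The labels name no treatment at either age.

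The fetal pancreas is built from an epithelium that branches into ducts and acini, the enzyme-secreting units, and sheds endocrine cells that gather into islets. This epithelium grows within a mesenchyme of fibroblasts, stellate cells, vessels and nerves, which supplies matrix and signals such as WNT, hedgehog, FGF and BMP ligands. In cystic fibrosis the exocrine pancreas is often damaged before birth and replaced by fibrous and fatty tissue.

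The deposited values were whole-number counts of reads per gene, with 59478191 and 60514559 counted reads at 65 days and 59721291 and 64947692 at 80 days, so 1 read was worth 0.0101 to 0.0132 CPM (counts scaled to 1000000 per library). The log2 CPM of the animals of one age correlated with a Pearson coefficient of 0.959 at 65 days and 0.957 at 80 days, across genes. Chi-square statistics per degree of freedom were 242 and 306, so neither pair was a library deposited a second time. CFTR itself (chromosome 4:50644000-50864925, minus strand, assembly Oar_v4.0) was read at 44.5 and 45.8 CPM at 65 days and at 30.6 and 43.9 at 80 days, and the difference of -0.28 (log2, SE 0.36) was smaller than its error. The count covers the whole gene, so this level checks nothing about the lesion in exon 2. All 4 libraries carried markers of the labelled tissue, with between 10250 and 30550 CPM of 17 digestive enzyme genes and between 1954 and 9928 CPM of 19 endocrine genes. The 65-day animal 2 stood apart from the other 3 in liver and red-cell transcripts, described at the end, where the values without it are given as well.

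No gene passed the test. Of 18737 genes fitted, 0 (0%) reached an adjusted p of 0.01 with an absolute log2 fold change of 0.58 by the quasi-likelihood test of edgeR, and the smallest adjusted p was 0.327, so every gene named here failed the correction over all genes. The study, by contrast, reported genes that passed these limits in both directions between these ages, and the cause of that gap was not tested. Unadjusted p-values under 0.05 were found for 1106 genes, 5.90%. DESeq2 called 15 genes (12 higher and 3 lower at 80 days), the likelihood ratio test of edgeR 7, all higher, and the fit without the 65-day animal 1 called 10, all lower, with APOA2, a liver apolipoprotein, at their head. To describe the direction of the differences, genes were also ranked by their unadjusted p, and 232 (1.24%) lay at or under 0.01 with a log2 difference of at least 0.58, 81 higher at 80 days (0.432%) and 151 lower (0.806%). The last gene inside this limit was FBLN5 (unadjusted p = 0.00999) and the first outside was COL6A6 (unadjusted p = 0.0101), both matrix genes. The values of the animals did not overlap between the ages in 80 of the 81 and 139 of the 151, against 42.3% of all genes tested in either direction (19.4% higher at 80 days, 23.0% lower). Over all genes the median log2 difference was -0.01, with quartiles at -0.38 and 0.31, and 9263 genes were above 0 (49.4%) and 9460 below (50.5%). The lower genes were longer (median 3200 bases) than the higher ones (1988), against 2895 over all genes tested. The log2 difference and gene length had a Spearman coefficient of -0.20 across genes, with medians of 0.22 in the shortest quintile of genes and -0.12 in the longest, and 2 animals of one age differed by as much (-0.23 for animal 1 minus 2 at 65 days, 0.23 at 80 days). With the length trend removed, 234 genes lay within the unadjusted limit, 123 higher and 111 lower. The number within the limit depended on the libraries in the fit, from 58 without the 80-day animal 1 and 129 without the 65-day animal 2 to 661 and 675 without animal 1 or 2 of 100 days, and it was 577 with only the 4 libraries compared.

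**Figure D1:**
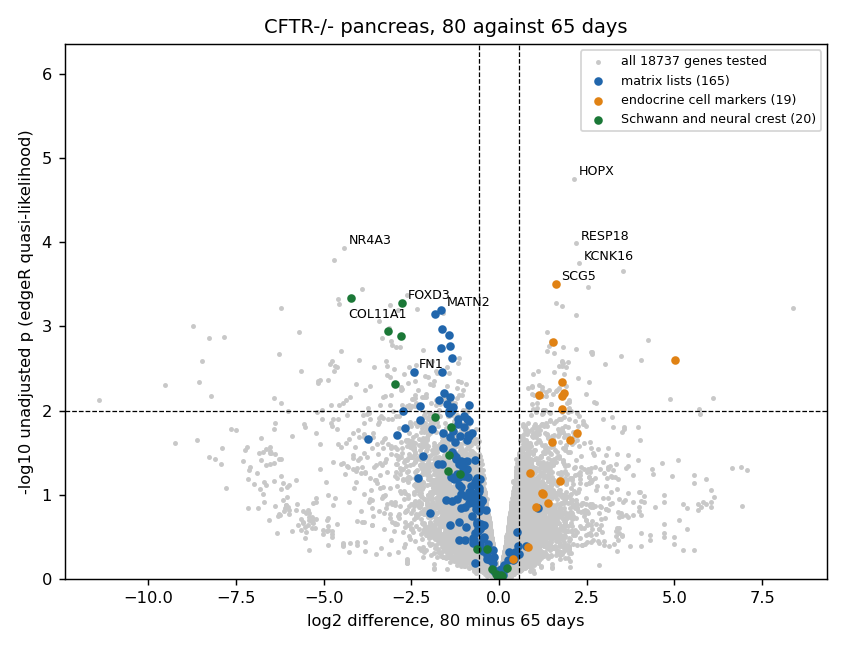
Log2 difference between 80 and 65 days (horizontal, 80 minus 65) against minus log10 of the unadjusted p (vertical) for 18737 genes, grey, with matrix genes in blue, endocrine genes in orange and Schwann and neural crest genes in green. The dashed lines mark the unadjusted p of 0.01 and log2 differences of 0.58; matrix and Schwann genes lie mostly to the left and endocrine genes to the right, and 0 genes passed the adjusted threshold.

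Most extracellular matrix genes had lower values at 80 days. Of the 11 fibrillar collagens, 9 were lower and 8 did not overlap between the ages, with a median log2 difference of -1.16. Over all genes tested, 23.0% were lower without overlap. They summed to 12350 and 14130 CPM at 65 days and to 4480 and 7822 at 80 days. COL11A1 (chromosome 1:79190461-79418111, minus strand), a chain of the type XI collagen that nucleates collagen fibrils, had 28.2 and 31.2 CPM at 65 days against 7.13 and 9.7 at 80 days. Both younger animals lay well above both older ones, a log2 difference of -1.82 (SE 0.38, unadjusted p = 0.000721). The type V chains COL5A3 and COL5A2, which set fibril diameter, were also lower. COL5A3 was at 54.2 and 61.4 CPM and then at 19.9 and 23.9 (-1.40, SE 0.33), and COL5A2 was at 402 and 414 and then at 125 and 183 (-1.41, SE 0.42). The bulk collagens of connective tissue gave smaller and less certain differences. COL1A1 was at 2777 and 3572 CPM at 65 days and 1133 and 1715 at 80 days (-1.15, SE 0.50, unadjusted p = 0.0428). For COL3A1, with 5700 and 6271 against 1914 and 3786, the difference of -1.07 was under 2 SE (SE 0.59), and the 80-day animal 2 lay nearer to the 65-day animals than animal 1 did.

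Of 24 other interstitial collagens 20 were lower (median -0.73), among them COL12A1, which binds to the surface of fibrils, at 140.0 and 144 CPM and then 50.6 and 60.5 (log2 difference -1.35, SE 0.34), and COL9A3 at 116 and 98.8 and then 53.6 and 65.3 (-0.85, SE 0.26). The 21 basement membrane genes, which encode the sheet under epithelia and vessels, were lower in 19 cases with a smaller median of -0.57, and none of them met the unadjusted limit. The nearest to it were HSPG2, the proteoglycan perlecan, with 67.5 and 103 CPM against 27.2 and 36.4 (unadjusted p = 0.0103), and LAMA4, a laminin chain of vessels, with 126 and 115 against 51.7 and 55.7 (unadjusted p = 0.0146). Collagen processing and crosslinking genes were lower in 24 of 26 with a median of -0.69 and again none within the unadjusted limit.

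Matrix glycoproteins and proteoglycans held the most members within the unadjusted limit, 9 of 52, all lower, against 0.806% of all genes. Of the 52, 46 were lower with a median of -0.94 (-1.51 without the 80-day animal 2). Fibronectin, FN1 (chromosome 2:216311974-216381691, minus strand), to which cells attach through integrins, was at 236 and 253 CPM at 65 days and at 34.7 and 56 at 80 days. The ages lay far apart, with a log2 difference of -2.43 (SE 0.64). MATN2, a filament-forming adaptor, had 112 and 109 against 25 and 45.6 CPM (-1.65, SE 0.34). FBLN2, a fibulin of elastic fibres and basement membranes, was the most even, with 31.6 and 31.2 CPM in the younger and 9.93 and 10.3 in the older animals (-1.63, SE 0.36). The proteoglycan VCAN was at 127 and 126 and then 30.9 and 45.7 CPM, and LTBP1, which tethers latent TGF-beta in the matrix, at 176 and 196 and then 62.7 and 88.2. In each of these 5 genes the 80-day animal 1 had less than the 80-day animal 2.

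Matrix proteases and their inhibitors were lower in 28 of 31 with a median of -0.79 (-1.28 without the 80-day animal 2). MMP14, the membrane-bound collagenase, was at 34.5 and 44.2 CPM at 65 days and at 10.3 and 14.7 at 80 days (-1.65, SE 0.40), and ADAMTS7 was at 36.6 and 36 and then 10.7 and 16.5 (-1.42, SE 0.32). The secreted regulator NOV, also called CCN3, was at 15.7 and 34.6 CPM and then 2.32 and 4.26, a log2 difference of -2.93 (SE 0.70), although the 65-day animals differed from each other by more than 2-fold. The genes of the study's own bulk account (COL11A1, COL5A3, FBLN2, MATN2, MMP14, FN1 and NOV here) were named by it from these libraries, so their values here are not independent evidence. The study listed NOV among genes upregulated between these ages, whereas its values here were lower at 80 days, and the cause was not tested.

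Markers of the cells that make this matrix were lower as well, but these lists share members with the matrix lists and with each other. COL1A1, COL3A1, DCN and LUM are also counted as fibroblast markers, and FN1, POSTN, SPARC and TNC as stellate markers. Of 20 mesenchyme and fibroblast markers 18 were lower (median -0.80), of 19 stellate cell and myofibroblast markers 16 (-1.08), of 11 smooth muscle markers all 11 (-1.09, and -1.88 without the 80-day animal 2) and of 16 endothelial markers all 16 (-0.56). The stellate and myofibroblast markers summed to 4814 and 4552 CPM at 65 days and to 1504 and 3162 at 80 days. POSTN, a matrix protein of activated fibroblasts, was at 1163 and 1241 CPM and then 307 and 582 (unadjusted p = 0.0105), ACTA2, the actin of contractile cells, at 194 and 250.0 and then 57.8 and 128 (unadjusted p = 0.101), and DCN, a fibroblast proteoglycan, at 855 and 653 and then 286 and 713, where the ages overlapped. In bulk tissue, fewer cells of a type and less RNA per cell cannot be told apart, and the part of cell numbers in the matrix differences was not tested. The matrix and mesenchyme medians stayed below 0 when any 1 of the 10 CFTR-/- libraries was left out, between -0.90 and -1.63 for the fibrillar collagens, between -0.43 and -1.20 for the other interstitial collagens, between -0.35 and -0.85 for basement membranes, between -0.42 and -1.08 for collagen processing and between -0.40 and -1.39 for the mesenchyme, each smaller without the 80-day animal 1 and larger without the 80-day animal 2. With the trend with gene length removed, these medians were -0.98, -0.60, -0.33, -0.59 and -0.67 in the same order.

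**Figure D2:**
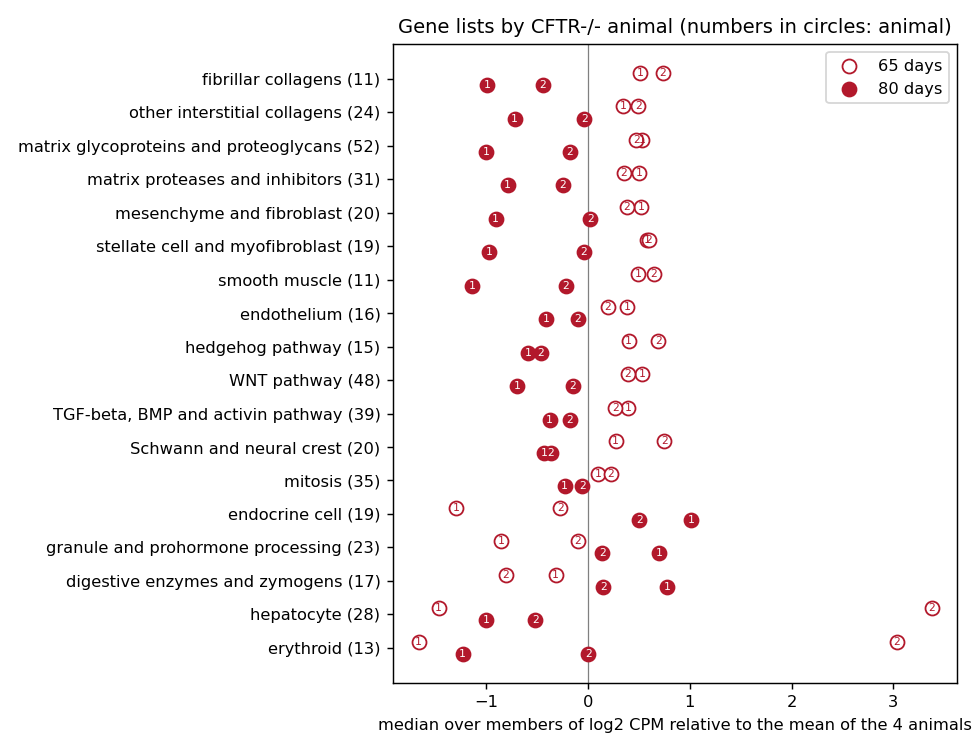
Median over the members of 18 gene lists of each animal's log2 CPM, relative to the mean of the 4 CFTR-/- animals for the gene (horizontal, log2), after adding 0.1 to each CPM, for CFTR-/- animals at 65 days (open circles) and 80 days (filled circles); numbers 1 and 2 in the circles name the animals. Matrix, mesenchyme and Schwann lists sit to the right at 65 days and endocrine and acinar lists at 80 days, the hepatocyte and erythroid lists stand out in the 65-day animal 2, and the 80-day animal 2 lies nearer than animal 1 to the 65-day animals in the matrix lists.

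Genes of several signalling pathways had the same direction. All 15 hedgehog pathway genes were lower at 80 days (median -1.06), 11 without overlap and 3 within the unadjusted limit. Over all genes these shares were 23.0% and 0.806%. BOC, a co-receptor of hedgehog ligands, was at 29.1 and 34.4 CPM and then 13.8 and 16.2 (-1.08, SE 0.30), the ligand trap HHIP at 3.59 and 2.82 and then 1.35 and 0.642 (-1.68, SE 0.53), and the ligand DHH, which is made by Schwann cells, at 3.74 and 2.01 and then 0.158 and 0.38 (-3.39, SE 1.04). SMO, the signal transducer, had 25.9 and 29.1 against 8.78 and 10.7 CPM (unadjusted p = 0.0255). Of 48 WNT pathway genes 37 were lower (median -0.91, and -0.57 without the 80-day animal 1 or -1.42 without the 80-day animal 2), and the 3 within the limit were extracellular modulators. The secreted WNT antagonist SFRP2 was at 31.2 and 20.4 CPM at 65 days and 3.64 and 6.6 at 80 days (-2.33, SE 0.50). WIF1, which binds WNT ligands directly, was scarcer, with 2.43 and 1.77 against 0.132 and 0.0393 CPM (-4.57, SE 1.01). RSPO2, which amplifies WNT signals, had 3.14 and 0.816 CPM at 65 days and 0 and 0.105 at 80 days, the latter resting on 0 and 8 reads. Of 39 TGF-beta, BMP and activin genes 33 were lower (median -0.74). GDF10, a BMP-like ligand, was even within ages at 28.1 and 28.1 CPM and then 6.32 and 8.61 (-1.91, SE 0.48), and FSTL1, a secreted BMP antagonist, at 719 and 604 and then 169 and 317 (-1.45, SE 0.44). LEFTY2, an inhibitor of NODAL signalling, went the other way, at 1.06 and 3.17 CPM and then 74.1 and 6.33, so its difference of 4.25 (SE 0.97) came mostly from the 80-day animal 1.

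In the IGF axis 17 of 19 genes were lower (median -0.89, and -0.57 without the 80-day animal 1), and the 1 within the limit was the binding protein IGFBP4, at 69.4 and 64 CPM and then 17.1 and 27.8 (-1.57, SE 0.47). Over all genes, 0.806% were lower within the limit. The cellular retinoic acid binding proteins were lower by more. CRABP1 was at 91.1 and 71.4 CPM at 65 days and at 4.13 and 14.7 at 80 days (-3.12, SE 0.87), and CRABP2 at 34.3 and 28.6 and then 2.81 and 5.67 (-2.89, SE 0.57). FGF and NOTCH pathway genes were more mixed, with 16 of 24 and 15 of 23 lower and medians of -0.40 and -0.16 (-0.25 and -0.30 without the 80-day animal 1), and 0 of either list within the limit. The HOX and regional identity genes were lower in 31 of 35 (median -0.87), also with 0 within it. Among 25 imprinted genes, 16 were lower, and SGCE (65.2 and 102, then 28.5 and 44.8 CPM) and the low gene RTL1 (1.37 and 2.38, then 0.501 and 0.131) met the limit. These were 2 of 25, against 0.806% of all genes. The imprinted median of -0.45 became 0.10 without the 65-day animal 2 and -0.11 without the 80-day animal 1.

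Schwann and neural crest genes, which mark the glia of pancreatic nerves and their precursors, were lower in 16 of 20 (median -0.87). Of the 20, 10 were lower without overlap, against 23.0% of all genes, and 5 lay within the unadjusted limit, against 0.806%. FOXD3 (chromosome 1:38282412-38284480, plus strand), a transcription factor of neural crest cells, was even within ages, with 2.87 and 2.67 CPM at 65 days against 0.383 and 0.432 at 80 days, a log2 difference of -2.75 (SE 0.58, unadjusted p = 0.000521). The Schwann cadherin CDH19 was at 4.94 and 10.4 and then 1.06 and 0.917 (-2.95, SE 0.82). SCN7A, a sodium channel of glia and neurons, was at 1.99 and 5.27 and then 0.435 and 0.38 (-3.15, SE 0.71). In CDH19 and SCN7A the 65-day animal 2 had more than 2 times the level of animal 1, yet both lay above the 80-day animals. SOX10, the master factor of this lineage, was lower by less (4.1 and 7.48, then 1.56 and 2.67 CPM, unadjusted p = 0.0516), and NGFR, the neurotrophin receptor that stellate cells also carry, was at 39.9 and 41.8 and then 8.16 and 15 (unadjusted p = 0.0119). The 14 neuronal markers were split into 7 higher and 7 lower (median -0.03, but 0.08 without the 80-day animal 1). Without either 65-day animal the Schwann median was -1.16 or -0.64.

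Some of the smallest unadjusted p among lower genes belonged to genes outside these lists, most of them at low levels. NR4A3, an orphan nuclear receptor that responds within hours to stimulation, was at 1.75 and 2.31 CPM at 65 days and 0.0528 and 0.131 at 80 days (-4.43, SE 0.82), and of the other 24 immediate early genes none met the limit. LRRTM1, a synaptic adhesion protein, was at 4.9 and 9.44 and then 0.33 and 0.616, and RLBP1, a retinaldehyde binding protein, at 6.76 and 8.86 and then 0.765 and 1.78. CGA, the alpha subunit that pituitary glycoprotein hormones share, was read at 8.32 and 6.24 CPM and then at 1.32 and 0.354. OIT3 was at 2.24 and 3.03 and then 0.0396 and 0.157, APCDD1L at 1.93 and 2.57 and then 0 and 0.183, and OLFM2 at 33.5 and 22.2 and then 8.01 and 10.5.

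**Figure D3:**
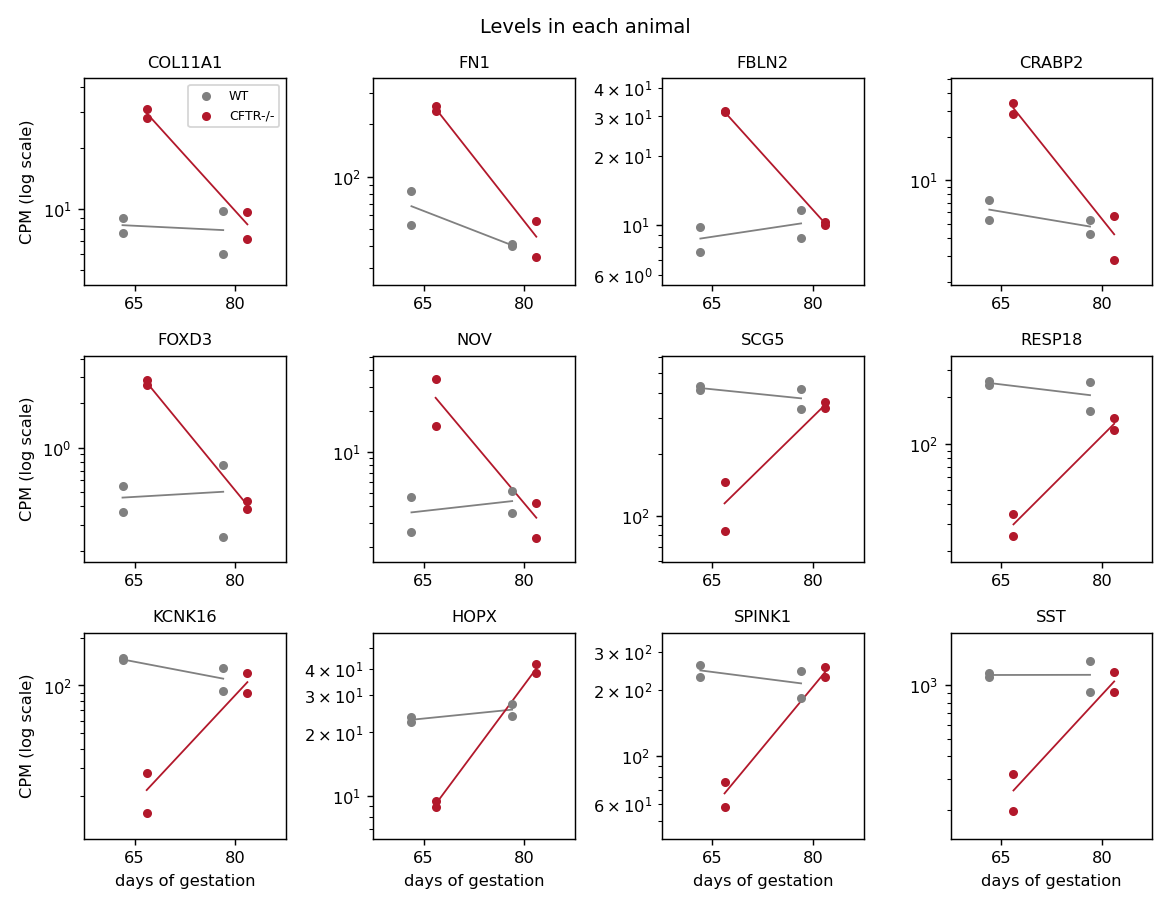
CPM (vertical, log scale) of 12 genes in each animal, with CFTR-/- animals in red and WT animals in grey at 65 and 80 days; each point is 1 animal and each line joins the means of an age. In COL11A1, FN1, FBLN2, CRABP2, FOXD3 and NOV the CFTR-/- animals of 65 days lie above all others, and in SCG5, RESP18, KCNK16, HOPX, SPINK1 and SST below those of 80 days.

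Endocrine genes were higher at 80 days. All 19 endocrine cell markers had positive log2 differences (median 1.53). Of them 14 did not overlap, against 19.4% of all genes higher without overlap, and 8 met the unadjusted limit, against 0.432%. The markers summed to 1954 and 3306 CPM at 65 days and 9928 and 7292 at 80 days. Glucagon, GCG, the hormone of alpha cells, was the most abundant, and per length it had a mean of 1452 RPKM (CPM per kilobase of gene) at 65 days and 4822 at 80 days. In CPM it went from 1256 and 2164 to 7087 and 4273, and the difference of 1.74 had an SE of 0.86. Somatostatin, SST, of delta cells was at 199 and 318 CPM and then 917 and 1181 (2.02, SE 0.75). Insulin was not matched by symbol in the tables and was not analysed here. TTR, which alpha cells and liver both make, was at 171 and 267 and then 1346 and 712.

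The proteins that load and process hormones in granules were higher in 22 of 23 (median 0.89), 7 of them within the unadjusted limit, against 0.432% of all genes. Among these, SCG5, SCG3, PCSK2, SCGN, CHGA and CHGB were already counted with the endocrine cell markers. Every endocrine cell marker also stands in the list of hormones, granule proteins or endocrine transcription factors, so these lists are not independent. SCG5 (chromosome 7:26989142-27044635, minus strand), the chaperone of the prohormone convertase PCSK2, was at 84 and 146 CPM at 65 days and 360.5 and 338 at 80 days, with a log2 difference of 1.61 (SE 0.30, unadjusted p = 0.00031). PCSK2 itself was at 16.3 and 42.3 and then 124 and 76.3 (1.78, SE 0.49). The granins SCG3, CHGA and CHGB, which pack granule contents, were also higher. SCG3 was at 40.3 and 91.5 and then 205 and 174 CPM, CHGA at 168 and 222 and then 443 and 416, and CHGB at 9.25 and 16.5 and then 54 and 34.9. SCGN, a calcium sensor of endocrine cells, was at 49.2 and 83.8 and then 274 and 199 (1.84, SE 0.54). RESP18, another granule protein (chromosome 2:220244621-220250215, minus strand), had the second smallest p of the higher genes, with 24.7 and 34.6 against 147 and 122 CPM (2.19, SE 0.36, unadjusted p = 0.000103).

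Of 22 endocrine transcription factors 20 were higher (median 0.89). NEUROD1, which drives endocrine differentiation, was at 5.06 and 12.7 CPM and then 39.7 and 21.4 (1.79, SE 0.53), and ISL1 at 12.2 and 18.4 and then 46 and 25.8, where the difference was under 2 SE (1.23, SE 0.67). Of 22 islet channels, receptors and glucose metabolism genes 18 were higher (median 0.84), 4 within the limit, against 0.432% of all genes. The potassium channel KCNK16 (chromosome 20:13151046-13158917, minus strand) was at 15.7 and 28.1 CPM and then 121 and 89.2 (2.27, SE 0.40), and KCNJ11, the pore of the ATP-sensitive potassium channel, at 4.07 and 10.7 and then 39.7 and 19.2 (2.00, SE 0.63). FFAR3, a receptor of short-chain fatty acids, was at 2.83 and 4.07 and then 14.2 and 9.66 (1.79, SE 0.46). In NEUROD1, KCNJ11 and PCSK2 the 65-day animal 2 exceeded animal 1 by more than 2-fold and the 80-day animal 1 exceeded animal 2, so the gap between the nearest animals of the ages was small. Leaving out 1 library moved the endocrine cell median between 1.06 and 2.18, that of the granule genes between 0.63 and 1.34, that of the transcription factors between 0.37 and 1.44 and that of the channels and receptors between 0.26 and 1.36. The lowest of the last 2 arose without the 80-day animal 1, and they were 0.56 and 0.38 without the 65-day animal 1.

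Of 17 islet and gut hormone genes 12 were higher at 80 days (median 1.15), but some were highest in the 80-day animal 2, and without that animal the median was -0.19. GIP, an incretin hormone of the gut, was at 1.86 and 7.29 CPM at 65 days and 16.1 and 86 at 80 days (3.46, SE 0.86), and pancreatic polypeptide, PPY, at 47 and 35.6 and then 55.9 and 329.8 (2.22, SE 0.79). Ghrelin, GHRL, was at 0.582 and 0.685 CPM and then 0.607 and 40.9, so its difference of 5.01 (SE 1.32) came from the 80-day animal 2 and without that animal was -0.05. Against this direction the neuropeptide genes ADCYAP1 (1.05 and 2.03, then 0.0264 and 0.0917 CPM) and NTS (0.408 and 3.0, then 0 and 0.0655) were lower. The SCG5, FFAR3, GIP and SPINK1 genes were named by the study from these libraries, as were the matrix genes above.

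Exocrine genes were higher at 80 days by their values, yet less surely so. Of 17 digestive enzymes and zymogens 15 were higher and 12 did not overlap, against 19.4% of all genes higher without overlap. The median was 0.97 (0.56 without the 80-day animal 1), but 0 met the unadjusted limit. They summed to 13450 and 10250 CPM at 65 days and 30550 and 19570 at 80 days. The bile salt lipase CEL was at 2815 and 2246 CPM and then 5729 and 4007 (0.95, SE 1.07), the elastase CELA1 at 213 and 184 and then 682 and 546 (1.63, SE 0.89), and the phospholipase PLA2G1B at 160.1 and 125 and then 337 and 454 (1.47, SE 0.72). SPINK1 (chromosome 5:56437361-56444215, minus strand), the trypsin inhibitor of acinar cells, was the member of the acinar list within the limit, at 76.2 and 58.3 CPM and then 230.2 and 256 (1.86, SE 0.50, unadjusted p = 0.00369). Duct markers were split, with 13 of 20 duct epithelium genes higher (median 0.21, but -0.08 without the 80-day animal 2) and 13 of 28 ion and fluid transport genes (median -0.03, but 0.07 without the 65-day animal 2). KCNE3, a potassium channel subunit of secretory epithelia, was the 1 transport gene within the limit, at 3.54 and 4.23 and then 16 and 29 CPM (2.53, SE 0.48). Over all genes, 0.432% were higher within the limit. Of 7 mucin genes 5 were higher (median 0.36, but -0.19 without the 65-day animal 1), and MUC1 and MUC6 had differences below 2 SE (0.48, SE 0.68 and 1.32, SE 0.84).

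The smallest p of all genes belonged to HOPX (chromosome 6:71918282-71949670, minus strand), a homeodomain protein that does not bind DNA. It was at 8.86 and 9.49 CPM at 65 days and 37.9 and 42.1 at 80 days, with the animals of each age close together and a log2 difference of 2.13 (SE 0.28, unadjusted p = 1.75e-05). DESeq2 and the likelihood ratio test called it. Other higher genes outside the lists were ASB9, a subunit of ubiquitin ligases (15.7 and 27.3, then 82.2 and 49.1 CPM), MRLN, a micropeptide that inhibits the calcium pump of the endoplasmic reticulum (1.66 and 2.79, then 10.4 and 9.96), ITPKA, an inositol phosphate kinase (4.0 and 3.73, then 10.7 and 9.03), STMN3, a regulator of microtubules in neurons (8.84 and 8.95, then 24.5 and 25.1), and NGFRAP1, also called BEX3 (193 and 197, then 536 and 498). The log2 differences of these 5 lay between 1.36 for ITPKA and 2.18 for MRLN.

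Heat shock genes as a list differed little (14 of 20 higher, median 0.16, and 0.10 without the 80-day animal 1), but inducible HSP70 genes stood out. HSPA6 was at 0.607 and 1.04 CPM at 65 days and 9.48 and 9.75 at 80 days (3.53, SE 0.63), and HSPA1A at 137 and 166 and then 1027 and 874 (2.65, SE 0.65). The HSPA1A count is uncertain where reads also match near-identical copies. The co-chaperone DNAJB1 was at 49.8 and 51.4 and then 115 and 96.7 (unadjusted p = 0.0207), and of 29 unfolded protein response genes 25 were higher by little (median 0.20, and 0.09 without the 80-day animal 1) with 0 within the limit. The glucose transporter SLC2A1 was the 1 hypoxia gene within it and was lower (27.3 and 67.8, then 13.1 and 18.9 CPM), in a list with 16 of 22 lower (median -0.36, and -0.56 without the 80-day animal 2). Over all genes, 0.806% were lower within the limit and 0.432% higher.

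Cell division genes differed slightly. Of 35 mitosis genes 31 were lower (median -0.30) and 23 did not overlap, against 23.0% of all genes lower without overlap. TOP2A, the topoisomerase of dividing cells, was at 93.5 and 107 CPM and then 55.5 and 74.2 (-0.62, SE 0.35). Of 36 DNA replication genes 25 were lower (median -0.11, but 0.02 without the 80-day animal 1). All 77 cytosolic ribosomal protein genes were higher (median 0.76), 68 without overlap against 19.4% of all genes, with 0 within the unadjusted limit. Their sums were 123000 and 69440 CPM at 65 days and 137900 and 187300 at 80 days. The 65-day animal 2 was lowest, and the median was 0.40 without that animal, 1.24 without the 65-day animal 1, 0.51 without the 80-day animal 2 and 0.58 after removal of the length trend. All 24 oxidative phosphorylation genes were higher, and their median was 0.20 without the 65-day animal 2, 0.53 without animal 1 and, over all animals, 0.35.

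Another group of large differences came with liver and red-cell transcripts of the 65-day animal 2. Of 28 hepatocyte genes 21 were lower at 80 days (median -3.10), 7 within the unadjusted limit, yet only 3 were lower without overlap. Over all genes these shares were 0.806% and 23.0%. The sums were 2816 and 8572 CPM at 65 days and 2836 and 6265 at 80 days, of which APOA1, an apolipoprotein that the gut makes as well, gave 2270, 1489, 519 and 4799. Albumin, ALB, was at 1.15 CPM in the 65-day animal 1, 1288 in animal 2, and 3.06 and 1.26 at 80 days, and the fetal serum protein AHSG at 5.06, 1688, 11.3 and 8.41 in the same order. The fibrinogen chains FGA and FGB and plasminogen, PLG, followed it. The study named these genes and itself stated that their levels were extreme in only 1 of the 65-day animals. FGA was at 1.35, 123, 0.515 and 1.17 CPM, FGB at 6.31, 225, 6.28 and 7.38, and PLG at 0.111, 35, 0.0792 and 0. Their log2 differences of -6.20, -4.07 and -8.72 (SE 1.38, 1.14 and 2.07) became -0.69, 0.11 and -1.45 without animal 2, and ALB was then 0.91. The hepatocyte median was 1.13 without animal 2 and -4.06 without animal 1. Of 13 red-cell genes 12 were lower (median -2.37, but 1.505 without animal 2), with sums of 493.1 and 4203 CPM and then 393.7 and 887, and SLC4A1, the anion exchanger of red cells, was at 0.21, 26, 0.33 and 0.878. Of 24 coagulation and fibrinolysis genes 18 were lower (median -0.70, and -0.13 without animal 2), and F10, a coagulation factor, was the 1 higher gene within the limit (4.72 and 7.74, then 19.6 and 14 CPM). Over all genes, 0.432% were higher within the limit. The part of this animal's liver and red-cell RNA in the other differences was not tested.

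**Figure D4:**
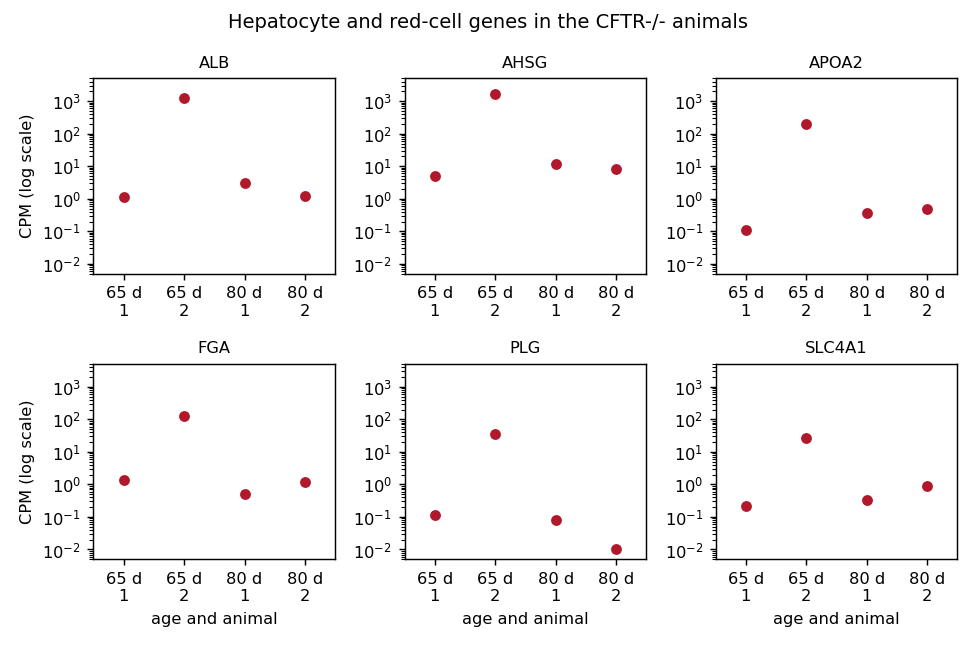
CPM (vertical, log scale) of 5 hepatocyte genes and 1 red-cell gene in the 4 CFTR-/- animals (horizontal); each point is 1 animal, and a value of 0 is drawn at 0.01. The 65-day animal 2 lies above the other 3 animals in every gene shown.

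Set beside the WT animals of the same ages, which share none of these libraries, the CFTR-/- step was larger in the genes it had singled out, which is a description, since that step chose them. In a fit of all 20 libraries the median log2 difference of the 151 lower genes was -2.53 in CFTR-/- and -0.48 in WT animals, and that of the 81 higher genes 1.78 and -0.12. Across all genes the 2 steps had a Pearson coefficient of 0.09. The WT mean at 65 days was nearer to the CFTR-/- mean of 80 than of 65 days in 126 of the 151 lower and 70 of the 81 higher genes (83.4% and 86.4%), against 67.2% of all genes tested, and the WT mean at 80 days in 146 and 73 (96.7% and 90.1%), against 67.7%. The chosen genes were picked for a wide gap between the CFTR-/- ages, so the shares over all genes are not a matched background for them. COL11A1 was at 7.62 and 9.05 CPM in the 65-day and 5.99 and 9.77 CPM in the 80-day WT animals, FN1 at 53.1 and 82.3 and then 40.04 and 40.9, and SCG5 at 412 and 431 and then 419 and 332. By list, the CFTR-/- and WT medians were -1.16 and -0.51 for the fibrillar collagens, -1.06 and -0.10 for the hedgehog pathway, -0.87 and -0.21 for Schwann and neural crest genes, and 1.52 and 0.00 for endocrine cell markers. The WT median was further from 0 than the CFTR-/- median in the CCN family of secreted regulators (-0.74 and -1.02), in lymphoid markers (0.41 and 1.29) and, with the opposite sign, in islet and gut hormones (1.15 and -1.38). The lymphoid markers summed to 21.6 and 34.3 CPM in the 65-day and 87.8 and 25.6 CPM in the 80-day WT animals, so the 80-day WT animal 1 alone was high. The WT median was also further from 0 in heat shock (0.15 and -0.45), neuronal (-0.03 and -0.47), enterocyte and stomach (-0.04 and -0.75), skeletal muscle (-0.13 and -0.52) and myeloid genes (-0.07 and -0.32). By less, this held for DNA replication (-0.11 and -0.20), duct ion and fluid transport (-0.04 and 0.10) and cholesterol synthesis (-0.03 and 0.04). Mitosis genes differed little (-0.31 and -0.29). Since WT fetuses were bred and CFTR-/- fetuses cloned from 1 male line, genotype cannot be told apart from cloning or from the genome of that line. The study's text does not state the sex of the WT fetuses, so sex may differ between the genotypes as well.

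**Figure D5:**
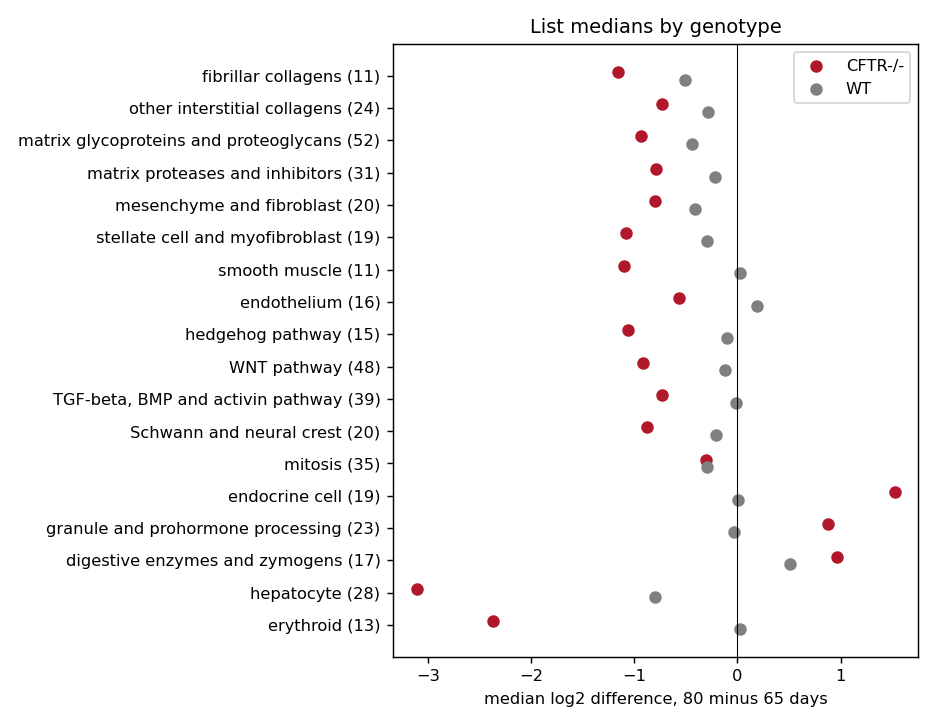
Median log2 difference between 80 and 65 days over the members of 18 gene lists (horizontal, 80 minus 65) in CFTR-/- animals (red) and WT animals (grey), from a fit of all 20 libraries. In the 18 lists shown the CFTR-/- medians lie further from 0 than the WT medians, by little in the mitosis list, and the difference between them was tested gene by gene only. The lists shown are a selection. Those with the WT median further from 0, such as islet and gut hormones and heat shock genes, are not drawn.

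The difference between the genotypes in this step was tested for each gene as an interaction of genotype and age. Of 19522 genes 0 (0%) passed, the smallest adjusted p was 0.108, 481 genes were under an unadjusted p of 0.05, and 93 (0.476%) lay within the unadjusted limit of 0.01, 46 with the higher step in CFTR-/- animals and 47 with the lower. The likelihood ratio test called 2. HSPA6 had the smallest p, with a WT step in the other direction, from 25.6 and 22 CPM to 3.29 and 2.37, which gave an interaction of 6.60 (SE 0.96, unadjusted p = 5.56e-06). GIP also went opposite ways, with WT values of 60.8 and 215 and then 6.53 and 21.8 (interaction 6.75, SE 1.46). Of the other genes with positive terms, SYCP2L, a component of meiotic chromosomes, was at 0.866, 1.22, 4.7 and 0.603 CPM in the CFTR-/- animals and at 3.88, 3.6, 0.0827 and 0.0489 in the WT animals, and gastrin, GAST, at 0.854, 0.655, 0.409 and 5.11 and at 3.76, 20.1, 0.785 and 0.318. MSMB was under 2 CPM in all 8 animals. Of those with negative terms, FAM129A, also called NIBAN1, was at 39.7 and 35.5 and then 19.97 and 12.5 CPM in CFTR-/- animals and at 12.6 and 6.65 and then 19.9 and 26.1 in WT animals (interaction -2.47, SE 0.50), and the Schwann gene SCN7A was lower at 80 days in CFTR-/- and higher in WT animals (0.196 and 0.235, then 0.496 and 0.611 CPM, interaction -4.52, SE 1.07). FGL1, a liver-secreted protein, was at 6.49 and 3.17 and then 0.568 and 1.68 CPM in CFTR-/- and under 2 CPM in WT animals.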

How the data were processed

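RNA from frozen pancreas tissue was sequenced by the authors as oligo-dT-primed paired-end libraries, aligned to Oar_v4.0 with STAR and assigned to genes with featureCounts; versions 2.6 and 1.6.3 are given in the submitters' processing notes. The deposited values are counts per gene without normalization, and no strand setting is stated, so reads of overlapping and antisense genes cannot be told apart.

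The CF table of 24478 genes was fitted with 1 group per age (10 libraries) by edgeR 4.0.16 under R 4.3.3, using TMM factors, genes that pass filterByExpr (min.count 10, min.total.count 15) and glmQLFTest for 80 against 65 days. In this fit the p-values set each difference against the spread between animals of one age, pooled over the 10 libraries. These animals were clones of 1 line, so the spread between unrelated fetuses was not measured. The threshold was 0.01 for the p-value adjusted by Benjamini-Hochberg together with 0.58 for the size of the log2 fold change. SE is the absolute log2 fold change over the root of F. The interaction and the printed CPM came from all 20 libraries. DESeq2 1.42.0, the likelihood ratio test and other settings were alternatives. Scripts were tested on simulated data.

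The members and lists were chosen with earlier results of these data known. Named were genes the study names, the 15 per direction with the smallest unadjusted p and no overlap, up to 4 per list with the smallest p and the highest in CPM, CFTR, and 5 per direction for the interaction. VCAN, LTBP1, SOX10, NGFR, CDH19, SST, PPY, CHGB, TTR, ALB, AHSG, ISL1, COL1A1, DCN and CEL, and the pair at the limit, FBLN5 and COL6A6, were added after their values were seen. Of 8432 locus numbers, 573 were given a RefSeq symbol. Loci without one are counted but mostly not named. Some genes that the rule names are not reported here. No sequences are printed.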

Additional observations from a re-analysis of the deposited data

How the results depend on the processing

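The count of 0 genes was 0 as well with DESeq2 size factors, no filter, the legacy fit, glmTreat against a fold of 1.5, all 20 libraries, an adjusted p of 0.05 and the length trend removed; it was 15 with the Wald test of DESeq2, 7 with the likelihood ratio test, and 0 to 10 when any 1 of the CFTR-/- libraries was left out, the 10 arising without the 65-day animal 1, where the single remaining animal is assumed to vary like those of the other ages. The 232 genes of the unadjusted limit became 107 with the legacy fit, 136 with glmTreat, 577 with only the 4 libraries compared, 733 without animal 2 of 100 days and animal 2 of term, and 58 to 675 when 1 library was left out, and the cause was not tested. With the replicate number as a block, 0 genes were called and 280 lay within the unadjusted limit. The numbers name different animals, and same-numbered animals deviated with correlations of -0.16 to 0.34 over the 10 pairs of CFTR-/- ages (-0.13 for 65 and 80 days), so the numbers were not taken to pair the animals. The interaction count of 0 became 2 with the likelihood ratio test (HSPA6 and SYCP2L) and stayed 0 in the other settings, the block included. Of 96 named genes under 21 alternatives, 6 turned direction in at least 1 setting. When 1 library was left out, AHSG ranged from -7.41 (without the 65-day animal 1) to 0.96 (without animal 2), ALB from -9.21 to 0.91, FGB from -5.03 to 0.11 and SLC4A1 from -5.42 to 1.51 in the same order, GHRL from -0.0504 (without the 80-day animal 2) to 5.99 (without animal 1) and APOA1 from -1.84 to 1.34 in the same order, and APOA1 was -0.12 with the replicate block. With 2 animals an age, each value rests on few animals, and 1 read at 0.0101 to 0.0132 CPM limits genes such as RSPO2 and NTS.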

Other observations

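Immune genes separated the animals of one age more than the ages. The 13 lymphoid markers summed to 57.6 and 29.6 CPM at 65 days and to 23.8 and 82.5 CPM at 80 days, with 9 higher and a median log2 difference of 0.41, which was 1.20 without the 80-day animal 1 and -1.39 without the 80-day animal 2. The 18 myeloid markers summed to 150.1 and 127.8 CPM and then to 90.6 and 181.6 CPM, with a median of -0.08 and the same dependence on the 80-day animal left out (0.57 and -0.96). In both lists 0 genes met the unadjusted limit.

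The pancreas progenitor and acinar transcription factors, which set and hold epithelial fate, were higher in 15 of 18 with a small median of 0.34 (0.09 without the 80-day animal 1), and 8 did not overlap between the ages, against 19.4% of all genes that were higher without overlap. Mesothelial markers, of the sheet that covers the organ, were lower in 7 of 8 (median -1.77, and -0.75 without the 65-day animal 2), at sums of 21.5 and 16.1 CPM and then 3.29 and 16.7 CPM, so the 80-day animal 1 alone was far below the others. The 20 cholesterol synthesis genes had a median of -0.02 with 8 higher and 12 lower.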
